A study of Homo sapiens with 4 samples.

Results

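The 39 genes described here encode the proteins that build the centromere and the kinetochore, grouped by the layer of the structure in which each protein sits. They were matched by GENCODE symbol to the Ensembl identifiers of the count table, which holds 64252 genes, and all 39 were among the 18779 genes with enough counts to be tested. Their expression was compared between SK-N-BE(2) cells, a MYCN-amplified human neuroblastoma line, carrying a scrambled shRNA (sh-Scb, 2 libraries) and the same line carrying an shRNA against SAPCD2 (sh-SAPCD2, 2 libraries). Both groups were made by lentiviral infection and puromycin selection, so the controls also carried a vector. The comparison addresses how the genes of each layer differed between cells with and without SAPCD2 knockdown. The labels do not say whether libraries of a group came from separate cultures, so p-values measure only the spread between these libraries.

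The kinetochore is assembled on chromatin that contains CENP-A, a variant of histone H3 that marks the centromere and is deposited by HJURP together with the MIS18 complex. The constitutive centromere-associated network (CCAN) binds this chromatin throughout the cell cycle. In mitosis it recruits the KMN network, which is made of KNL1, the MIS12 complex and the NDC80 complex, and NDC80 and the SKA complex grip spindle microtubules. Outside these lies the fibrous corona, with the motor CENP-E, the scaffold CENP-F, the RZZ complex and its dynein adaptor Spindly. Shugoshins protect the cohesin that holds sister centromeres together. Many of these genes are transcribed mainly in S phase and G2/M. In bulk RNA, fewer dividing cells and less RNA per cell cannot be told apart.

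The libraries held 25347900 to 31850997 counts, and the detection limit of 3 counts was 0.0942 to 0.118 CPM (counts relative to the library total), a limit that covers counting error only. CPM values of genes were also scaled by TMM, which adjusts for the composition of a library. SAPCD2 stood at 83.6 and 82.2 CPM in the sh-Scb libraries and at 35.4 and 52.5 CPM in the sh-SAPCD2 libraries, with a log2 fold change of −0.91 ± 0.193 (SE, n = 2 per group) and an edgeR adjusted p of 0.0206, and it overlaps 2 genes on the opposite strand. The sh-SAPCD2 libraries thus kept 42.7% and 63.3% of the control level, and they differed from each other more than the controls did (chi-square per degree of freedom 34.3 against 4.19). The adrenergic neuroblastoma markers HAND2, GATA3, ISL1, TH and DBH were above 1 CPM in every library, whereas 3 of 6 mesenchymal, 4 of 5 blood cell and 3 of 4 epithelial markers were at or under 1 CPM, with PRRX1, CD3E and CDH1 at 0 in every library. Among those adrenergic markers, DBH fell (log2 fold change −1.35, edgeR adjusted p = 0.00207), as did ISL1 (−0.52, edgeR adjusted p = 0.0185). HAND2, GATA3 and TH did not differ at an edgeR adjusted p under 0.05. The summed mesenchymal level, nearly all of it VIM, was 1229 to 1246 CPM in the controls and 553 to 588 CPM after knockdown, the summed blood level 8.94 to 9.70 CPM and 10.8 to 12.6 CPM, and the summed epithelial level 4.05 to 5.74 CPM and 3.59 to 4.65 CPM. The part of other cell types in the results was not tested.

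The hairpin of these libraries is not numbered in the labels, and the heat map of the study that shows them is headed sh-SAPCD2#1. The target of that hairpin is shown because it ties the perturbation to a place in SAPCD2, and capitals mark the bases that pair with bases 2 to 8 of the guide strand, its seed.
sh-SAPCD2 #1 target: acctctggattccACCTTCAt
sh-SAPCD2 #1 guide: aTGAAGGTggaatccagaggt
The target matched the SAPCD2 transcript once, at chr9:137064663-137064683 on the minus strand of hg38, in the coding sequence of exon 6. The 7 bases that pair with the seed occurred in the 3′ UTR of 1 of the 39 genes, NSL1 (2.56%), against 12.5% of 13584 tested genes with a 3′ UTR. Of these tested genes, 283 of 1702 with a site and 1611 of 11882 without one were lower at an edgeR adjusted p under 0.05. Their median log2 fold changes were −0.04 and 0.05, and NSL1 stood at −0.95. The part of the seed in the results was not tested.

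The control regions upstream of 6 genes are shown with the short motifs found in them. CENPA and HJURP come from the centromeric chromatin layer, and CENPK and CENPX had the lowest and the highest log2 fold change. ZWINT comes from the KMN network, and CENPF had the most counts. The regions were chosen after the values of these genes were seen. Each is the 150 bases before the transcription start in RefSeq (GRCh38.p14), written 5′ to 3′ on the strand of the gene, and capitals mark the cell cycle genes homology region (CHR, TTTGAA or TTCGAA) and the NF-Y box (CCAAT) on either strand, so TTCAAA and ATTGG are matches on the opposite strand. They lie at chr2:26785906-26786055 (plus strand), chr2:233854536-233854685 (minus), chr5:65563169-65563318 (minus), chr17:82022879-82023028 (minus), chr10:56361260-56361409 (minus, the downstream of 2 starts) and chr1:214603045-214603194 (plus).
CENPA: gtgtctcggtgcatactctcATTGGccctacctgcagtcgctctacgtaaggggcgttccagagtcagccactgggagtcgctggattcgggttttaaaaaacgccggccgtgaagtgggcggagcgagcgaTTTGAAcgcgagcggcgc
HJURP: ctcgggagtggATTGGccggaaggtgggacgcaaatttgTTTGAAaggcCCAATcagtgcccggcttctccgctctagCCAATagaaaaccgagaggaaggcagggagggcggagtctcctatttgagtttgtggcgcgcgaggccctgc
CENPK: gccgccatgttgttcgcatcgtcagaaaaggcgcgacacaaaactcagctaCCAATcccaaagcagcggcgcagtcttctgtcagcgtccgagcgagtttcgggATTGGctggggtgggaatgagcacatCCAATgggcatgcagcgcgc
CENPX: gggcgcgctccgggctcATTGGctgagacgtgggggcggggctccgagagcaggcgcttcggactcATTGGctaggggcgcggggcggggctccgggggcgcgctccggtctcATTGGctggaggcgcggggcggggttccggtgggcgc
ZWINT: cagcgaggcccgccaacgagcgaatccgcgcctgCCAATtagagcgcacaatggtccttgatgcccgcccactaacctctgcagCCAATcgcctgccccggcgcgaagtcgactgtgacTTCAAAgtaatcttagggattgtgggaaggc
CENPF: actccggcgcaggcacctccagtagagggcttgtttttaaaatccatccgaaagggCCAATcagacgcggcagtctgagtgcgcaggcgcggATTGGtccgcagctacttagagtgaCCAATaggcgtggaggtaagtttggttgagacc
CENPA carries a CHR next to its start with a CCAAT box further upstream, and ZWINT carries the same arrangement with a pair of CCAAT boxes. CENPK, CENPX and CENPF each carry 3 CCAAT boxes and no CHR in these 150 bases.

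Most of the kinetochore genes were lower in the sh-SAPCD2 libraries. Of the 39 genes, 32 fell at an edgeR adjusted p under 0.05 (12.5% of all tested genes did), 0 were higher at that threshold (12.4% of all tested genes) and 7 were not called, namely CENPA, CENPC, CENPQ, CENPT, CENPX, PMF1 and SKA1. At an absolute log2 fold change over 1, the size set for a differentially expressed gene (DEG), 16 were lower DEGs, against 5.15% of tested genes. The median log2 fold change of the 39 genes was −0.87, with a range from −1.62 (CENPK) to 0.92 (CENPX), and the median of all tested genes was 0.02. In 35 genes both sh-SAPCD2 libraries lay below both sh-Scb libraries (33.4% of tested genes), in CENPX both lay above (33.5%), and in CENPQ, CENPT and SKA1 the groups overlapped. Summed over the 39 genes, the sh-SAPCD2 libraries held 57.9% and 48.2% of the mean control CPM. Without sh-Scb replicate 1 or replicate 2 fewer genes were called, all among the 32, and the median log2 fold change was −0.87 or −0.89. Both fits lost CENPL, CENPM, CENPO, CENPW, HJURP, MIS12, MIS18A, OIP5, ZW10 and ZWILCH, and SGO2 was lost only without sh-Scb replicate 2. Without sh-SAPCD2 replicate 1 or replicate 2 more genes were called, and the median was −1.00 or −0.82. Over all tested genes, the number called lower also fell without an sh-Scb library and rose without an sh-SAPCD2 library. These shifts in calls are therefore not particular to the 39 genes.

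**Figure D1:**
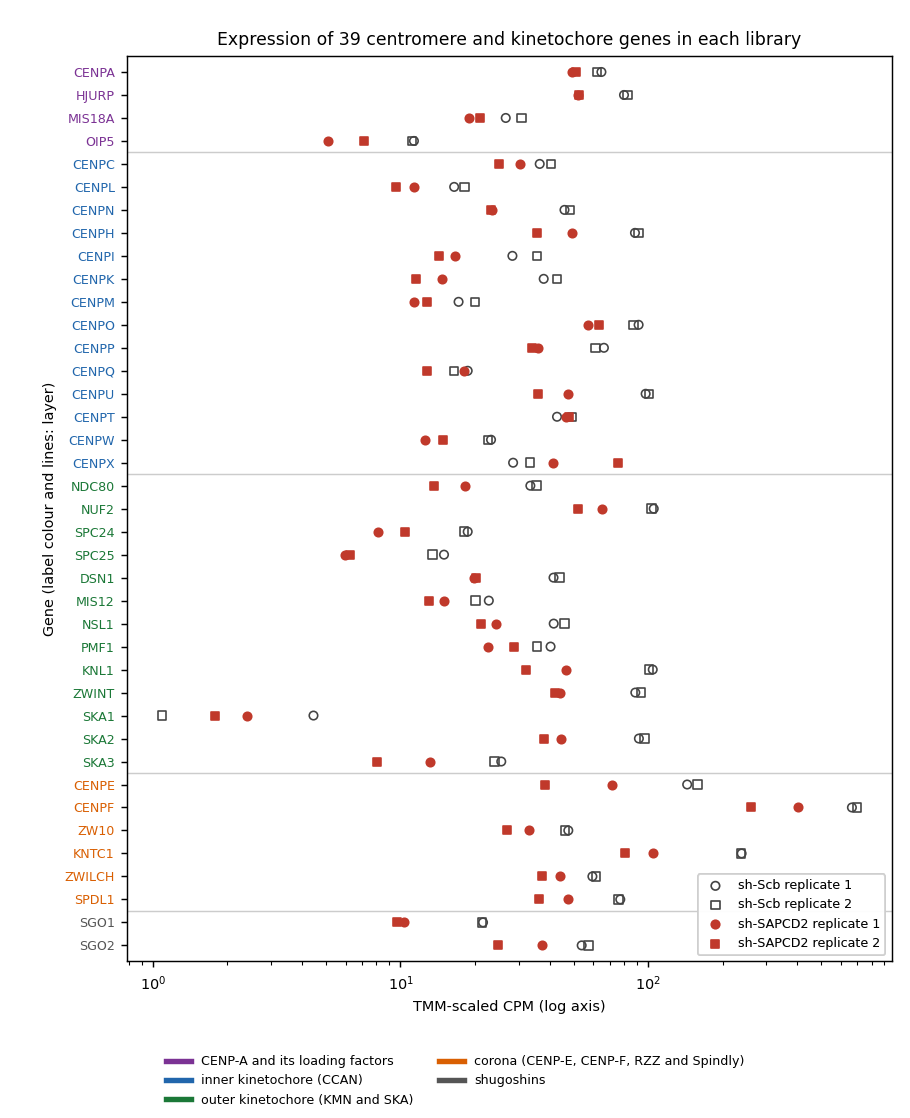
Expression of the 39 centromere and kinetochore genes, 1 row per gene grouped by layer, as TMM-scaled CPM on a log axis, with open symbols for the 2 sh-Scb libraries and filled red symbols for the 2 sh-SAPCD2 libraries. In 35 genes both filled symbols lie left of both open symbols, CENPX shows the opposite order, and CENPF has the highest and SKA1 the lowest CPM.

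**Figure D2:**
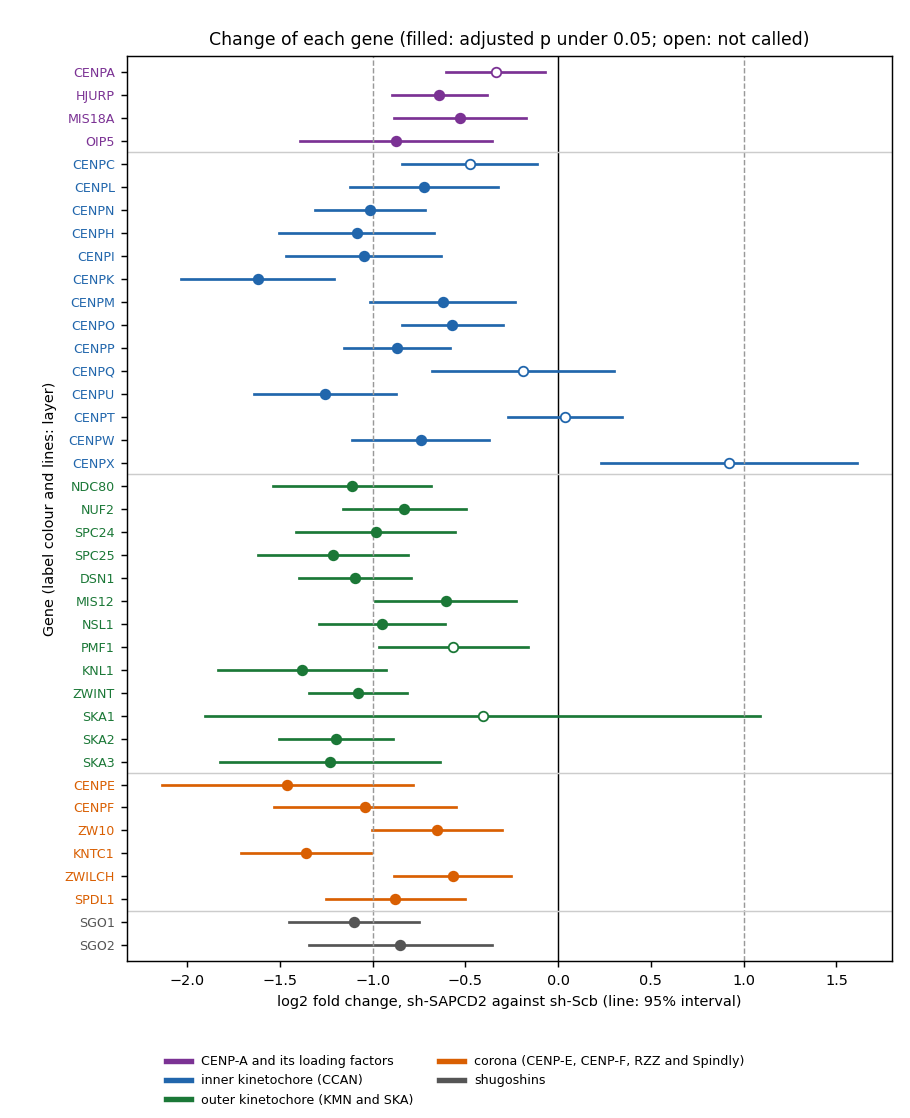
The log2 fold change of each gene in sh-SAPCD2 against sh-Scb cells with its 95% interval from edgeR, coloured by layer, with filled points for an adjusted p under 0.05. The 32 filled points all lie left of 0, and dashed lines mark an absolute log2 fold change of 1, which 16 filled points pass.

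The layer nearest to DNA, CENP-A and its loading factors, had 3 of 4 genes called lower and 0 DEGs, with a median log2 fold change of −0.59. CENPA (ENSG00000115163, chr2:26764289-26801067), the histone variant itself, had 64.8 and 62.2 CPM in sh-Scb and 49.2 and 51.3 CPM in sh-SAPCD2 cells. The groups did not overlap, yet the log2 fold change of −0.34 ± 0.109 (95% interval −0.60 to −0.07) missed the threshold over all genes (edgeR adjusted p = 0.0705). CENPA was also the most abundant of the 4 per length of transcript, at 45.7 CPM per kb in the controls. It overlaps SLC35F6 on the same strand, so the split of reads between those genes is uncertain.

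OIP5, the MIS18 complex subunit also named MIS18 beta, had 11.3 and 11.1 CPM in the controls and 5.10 and 7.13 CPM after knockdown. It fell the most in this layer, by 0.87 on the log2 scale (SE 0.213, edgeR adjusted p = 0.0313). HJURP, the chaperone that delivers CENP-A, fell from 79.9 and 82.6 CPM to 51.9 and 52.4 CPM, a log2 fold change of −0.64 ± 0.105 with an edgeR adjusted p of 0.0102. The sh-SAPCD2 libraries thus nearly coincided for HJURP and lay apart for OIP5. MIS18A, the partner of OIP5, had a log2 fold change of −0.53 and an edgeR adjusted p of 0.0448. The summed level of the layer was 67.7% and 71.3% of control in the 2 sh-SAPCD2 libraries, and in 0 of the 4 genes was replicate 2 below replicate 1.

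In the CCAN, 10 of 14 genes fell, 5 of them as DEGs, and the median log2 fold change was −0.73. Its subcomplexes differed in their values, and those differences were not tested. All 4 genes of the CENP-H/I/K/M subcomplex, which links CENP-A chromatin to the outer kinetochore, fell. CENPK (ENSG00000123219, chr5:65517766-65563168) had 37.9 and 42.8 CPM in the controls and 14.7 and 11.6 CPM after knockdown. Its log2 fold change of −1.62 ± 0.170 was the lowest of the 39 (edgeR adjusted p = 0.00344), and the knockdown libraries kept 36.5% and 28.7% of the control mean. CENPH, at 66.5 CPM per kb in the controls the most abundant of the 39 genes per length, had 88.5 and 91.5 CPM against 49.3 and 35.6 CPM, and fell by 1.09 on the log2 scale (SE 0.171, edgeR adjusted p = 0.00906). CENPI (log2 fold change −1.05) and CENPM (−0.62) also fell. Levels per kb use the length of the GENCODE canonical transcript and depend on it.

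Of the CENP-L/N pair, in which CENP-N reads the CENP-A nucleosome, CENPN fell by 1.02 and CENPL by 0.72 on the log2 scale. The CENP-O/P/Q/U subcomplex, which brings PLK1 to the kinetochore, had 3 of 4 genes called lower. CENPU, its PLK1-binding subunit, had 97.7 and 101 CPM in sh-Scb and 47.5 and 35.8 CPM in sh-SAPCD2 libraries, a log2 fold change of −1.25 ± 0.158 (edgeR adjusted p = 0.00519). CENPP fell by 0.87 and CENPO by 0.57 on the log2 scale. CENPQ, the partner of CENPU, had 18.7 and 16.4 CPM in the controls and 18.0 and 12.8 CPM after knockdown. Its groups overlapped, and its log2 fold change was −0.19 with a 95% interval from −0.68 to 0.30 (edgeR adjusted p = 0.528). CENPC, the large scaffold that touches both CENP-A and the MIS12 complex, had 36.5 and 40.4 CPM against 30.3 and 25 CPM. The groups of CENPC did not overlap, and its log2 fold change of −0.48 ± 0.149 was not called (edgeR adjusted p = 0.0634).

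The histone-fold genes of the CENP-T/W/X subcomplex, which forms another route to NDC80, had values of unlike direction. CENPS, the partner of CENPX, is not among the 39 and fell by 1.25 on the log2 scale (edgeR adjusted p = 0.00594). CENPW, which pairs with CENP-T, had 23.2 and 22.6 CPM in the controls and 12.5 and 14.9 CPM after knockdown, and fell by 0.74 on the log2 scale (SE 0.152, edgeR adjusted p = 0.0190). CENPT had 42.9 and 49.4 CPM against 46.7 and 47.9 CPM, a log2 fold change of 0.04 with an interval from −0.27 to 0.34 (edgeR adjusted p = 0.851). CENPX (ENSG00000169689, chr17:82018702-82024107), which is shared with the Fanconi anemia DNA repair machinery, had 28.5 and 33.4 CPM in the controls and 41.2 and 75.8 CPM after knockdown. Both knockdown libraries were above both controls, at 133% and 245% of the control mean, but the log2 fold change of 0.92 ± 0.284 was not called (edgeR adjusted p = 0.0618, and 0.000430 to 0.179 over the alternatives). CENPX was called higher without sh-SAPCD2 replicate 1 (log2 fold change 1.29) and without sh-Scb replicate 2 (1.04), and stood at 0.41 without sh-SAPCD2 replicate 2. On the opposite strand it overlaps LRRC45, and CENPT overlaps NUTF2, THAP11 and TSNAXIP1, so that reads of these genes cannot be told apart without strand. The summed CCAN level was 63.7% of control in either sh-SAPCD2 library.

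The KMN network and SKA complex had 11 of 13 genes called lower, 7 of them DEGs, and a median log2 fold change of −1.08. KNL1 (ENSG00000137812, chr15:40594020-40664342), the platform for the checkpoint kinase BUB1, had 104 and 101 CPM in the controls and 46.7 and 32.2 CPM after knockdown. Its log2 fold change of −1.38 ± 0.187 was the lowest of the layer (edgeR adjusted p = 0.00595). ZWINT, which binds KNL1 and the RZZ complex, went from 88.8 and 93.4 CPM to 44.1 and 42.2 CPM and fell by 1.08 on the log2 scale (SE 0.109, edgeR adjusted p = 0.00322). In both genes the groups lay far apart, and only for KNL1 did the knockdown libraries differ widely from each other.

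All 4 genes of the NDC80 complex, the main microtubule binder of the kinetochore, fell. NUF2, the most abundant gene of the layer per length at 53.1 CPM per kb in the controls, had 105 and 103 CPM against 65.3 and 52.3 CPM, a log2 fold change of −0.83 ± 0.136 (edgeR adjusted p = 0.0101). NDC80 had a log2 fold change of −1.11, SPC25 of −1.22 and SPC24 of −0.98, the last pair forming the end that docks on the inner kinetochore. In the MIS12 complex, which joins NDC80 to the CCAN, DSN1 (−1.09), NSL1 (−0.95) and MIS12 (−0.61) fell. PMF1, the remaining subunit, had 40.4 and 35.6 CPM in the controls and 22.6 and 28.8 CPM after knockdown. Its groups did not overlap, and its log2 fold change of −0.56 ± 0.165 was not called (edgeR adjusted p = 0.0528). PMF1 shares exons with the readthrough gene PMF1-BGLAP, which had 104 and 128 counts in the controls and 26 and 81 counts after knockdown, so the split of reads between them is uncertain.

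In the SKA complex, which keeps hold of shortening microtubules, SKA2 fell by 1.20 and SKA3 by 1.23 on the log2 scale. SKA1 had by far the fewest reads of the 39 genes, with 123 and 30 counts in the controls and 61 and 56 counts after knockdown. These correspond to 4.45 and 1.09 CPM and to 2.41 and 1.78 CPM, so the 2 control libraries enclosed both knockdown libraries. No difference was detectable for SKA1 at this depth (log2 fold change −0.41, 95% interval −1.90 to 1.09, edgeR adjusted p = 0.661), and its direction turned without sh-Scb replicate 1 (0.93). The summed KMN and SKA level was 52.2% and 45.5% of control.

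All 6 corona genes fell, 3 of them as DEGs, with a median log2 fold change of −0.96. CENPE (ENSG00000138778, chr4:103105349-103198445), the kinesin that carries chromosomes to the spindle equator, had 144 and 159 CPM in the controls and 71.7 and 38.5 CPM after knockdown. It fell by 1.46 on the log2 scale (SE 0.278, edgeR adjusted p = 0.0153), and the knockdown libraries kept 47.4% and 25.4% of control. CENPF (ENSG00000117724, chr1:214603185-214664574), the large coiled-coil protein that accumulates in G2, had 665 and 698 CPM in the controls and 402 and 261 CPM after knockdown, the highest values of the 39 genes in each library. Its log2 fold change was −1.04 ± 0.201 (edgeR adjusted p = 0.0160), and per length it was the most abundant corona gene, at 66.2 CPM per kb in the controls. In both genes sh-SAPCD2 replicate 2 lay far below replicate 1.

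KNTC1, the ROD subunit of the RZZ complex, had 238 CPM in either control and 105 and 80.7 CPM after knockdown, a log2 fold change of −1.36 ± 0.145 (edgeR adjusted p = 0.00365). It was the highest corona gene after CENPF in CPM, and its control libraries were nearly equal. Its partner ZWILCH had 59.5 and 61.5 CPM against 44.2 and 37.4 CPM and the smallest corona change, −0.57 ± 0.130 (edgeR adjusted p = 0.0261). ZW10, which also works in membrane traffic, had a log2 fold change of −0.65. SPDL1, which encodes Spindly, fell by 0.88 on the log2 scale. The corona sum was 56.1% of control in sh-SAPCD2 replicate 1 and 38.3% in replicate 2, and all 6 genes were lower in replicate 2. Replicate 2 was also the lower in 2 of 2 shugoshins, 9 of 13 KMN and SKA genes and 9 of 14 CCAN genes. It was the lower in 0 of 4 genes of the CENP-A layer and in 49.4% of all tested genes. Without sh-SAPCD2 replicate 1 the corona median was −1.24, and without sh-SAPCD2 replicate 2 it was −0.72.

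Both shugoshin genes fell. SGO1 had 21.5 and 21.3 CPM in the controls and 10.3 and 9.65 CPM after knockdown, and its log2 fold change of −1.10 ± 0.144 made it a DEG (edgeR adjusted p = 0.00570). SGO2 had 53.9 and 57.5 CPM in the controls and 37.1 and 24.7 CPM after knockdown, a log2 fold change of −0.85 ± 0.203 (edgeR adjusted p = 0.0296). The knockdown libraries were close together for SGO1 and apart for SGO2, whose log2 fold change was −1.18 without sh-SAPCD2 replicate 1 and −0.58 without sh-SAPCD2 replicate 2. Per length SGO2 was the more abundant, at 12.4 CPM per kb against 6.98 CPM per kb for SGO1 in the controls.

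**Figure D3:**
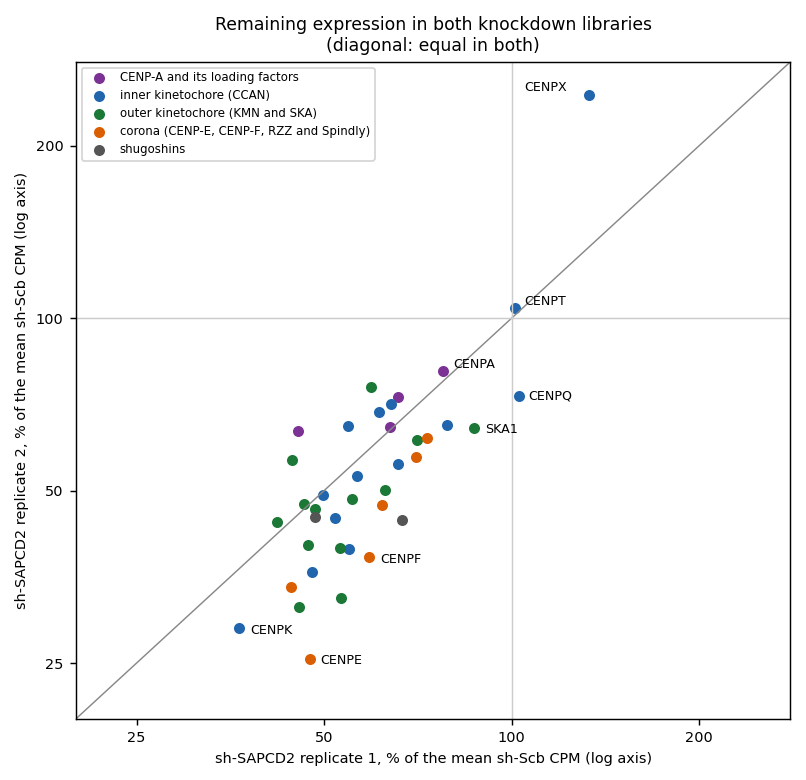
Expression left in each sh-SAPCD2 library as a percentage of the mean sh-Scb CPM, with replicate 1 on the horizontal and replicate 2 on the vertical log axis and 1 point per gene coloured by layer. Under the diagonal lie 26 of the 39 genes, among them the 6 corona genes (orange), with CENPE at 47.4% and 25.4%. CENPX lies alone in the upper right at 133% and 245%.

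The difference between the sh-SAPCD2 libraries varied with the base composition of the genes, and the part of this in the fold changes was not tested beyond the correction given here. Replicate 2 was below replicate 1 in 26 of the 39 genes and in 49.4% of all tested genes. Across the 39 genes, the log2 ratio of replicate 2 to replicate 1 had a Pearson r of 0.72 (Spearman 0.68) with the GC content of the transcript and of −0.58 (Spearman −0.50) with its log2 length. Over 14624 genes with at least 1 CPM in the controls, the same ratio had an r of 0.56 (Spearman 0.65) with GC content. These are descriptions across genes that share the same 2 libraries. The log2 fold change of the 39 genes had an r of 0.58 (Spearman 0.45) with GC content, against 0.20 (Spearman 0.21) over the 14624 genes. CENPK, with 32.8% GC the lowest of the 39, had the lowest log2 fold change, and CENPX, with 59.6% GC, the highest. Other genes did not follow this order. CENPM, with 59.7% GC the highest of the 39, had a log2 fold change of −0.62, and CENPQ, with 34.0% GC, of −0.19. The median GC content was 41.0% in the 39 genes and 48.4% in the tested genes. With GC content and length corrected in every library, 35 genes were called lower, the 32 and CENPA, CENPC and PMF1. Lower DEGs went from 16 to 9, and CENPX was called higher (log2 fold change 0.65). Over all 18779 tested genes, 3665 were called lower with this correction, against 2339 without it. SAPCD2 itself, with 66.5% GC, had a log2 fold change of −1.30 with this correction and of −0.91 without it. The part of base composition in its unlike levels in the sh-SAPCD2 libraries was not tested.

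For 13 pairs of genes that work side by side, chosen after the values were seen, the ratio of their CPM per kb was taken in each library, with no test. Groups that do not overlap were common in these libraries (33.4% of single tested genes with both knockdown libraries below and 33.5% with both above), so nothing is read from the number of pairs without overlap. The ratio of CENPX to CENPS, its partner, was 2.14 and 2.65 in the controls and 8.22 and 13.0 after knockdown. CENPS overlaps CENPS-CORT on the same strand, so the split of reads between those genes is uncertain. The transcripts of CENPX and CENPS also differ in GC content, at 59.6% and 43.2%, and the part of this in the ratio was not tested. CENPQ stood to CENPU at 0.274 and 0.233 in the controls and at 0.543 and 0.514 after knockdown. CENPT stood to CENPW at 0.579 and 0.685 and at 1.17 and 1.01. The transcripts of CENPT and CENPW have 59.0% and 39.2% GC. Their log2 fold changes were 0.04 and −0.74, and −0.12 and −0.59 with GC content and length corrected. In these 3 pairs the ratio was higher in both knockdown libraries, and in each of them the numerator was not called while the denominator fell.

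The ratio of KNTC1 to ZW10 moved the other way, from 2.06 and 2.12 in the controls to 1.31 and 1.24 after knockdown. SPC24 to SPC25 was 0.730 and 0.786 in the controls and 0.799 and 0.970 after knockdown, with no overlap. The transcripts of SPC24 and SPC25 have 53.3% and 39.9% GC. Their log2 fold changes were −0.98 and −1.22, and −1.03 and −1.06 with GC content and length corrected. SKA3 to SKA2 (0.272 and 0.243 against 0.291 and 0.207) and SGO1 to SGO2 (0.583 and 0.541 against 0.407 and 0.569) were the 2 pairs in which the groups overlapped.

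**Figure D4:**
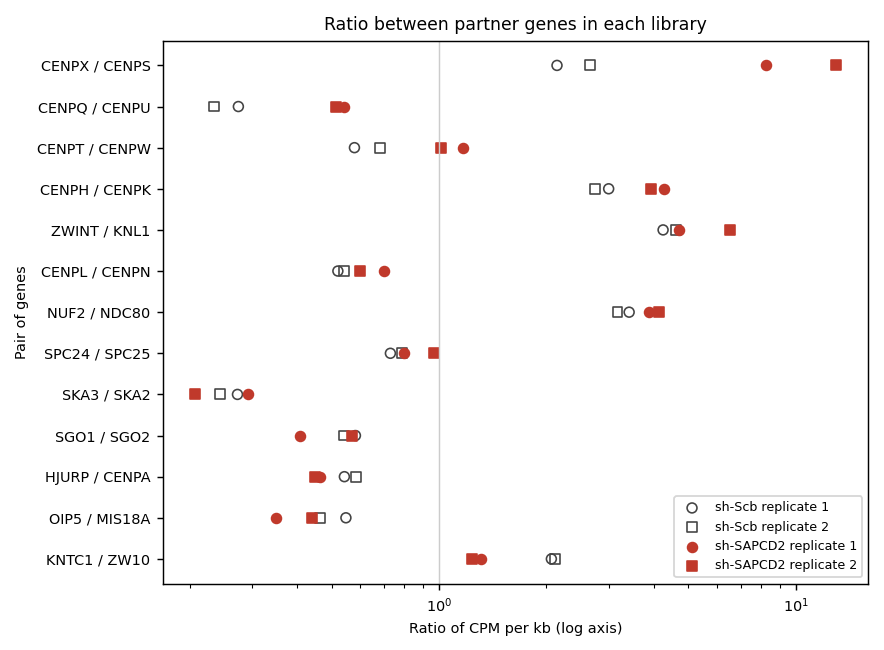
Ratio of CPM per kb between the genes of 13 partner pairs in each library, on a log axis, with open symbols for sh-Scb and filled red symbols for sh-SAPCD2 libraries. CENPX / CENPS shows the widest gap, from 2.14 and 2.65 to 8.22 and 13.0, and only SKA3 / SKA2 and SGO1 / SGO2 overlap.

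Genes that work at the kinetochore but are not among the 39 were also mostly lower. Of 25 such genes, 19 fell, 7 of them as DEGs, 1 was higher and 5 were not called, and the median log2 fold change was −0.78. Over all tested genes, 12.5% fell, 5.15% were lower DEGs and 12.4% were higher. By role, 4 of 5 further centromeric genes fell (median −1.08), as did all 4 genes of the chromosomal passenger complex (−0.87), 6 of 7 spindle checkpoint genes (−0.88) and 5 of 9 microtubule regulators (−0.52). Without sh-Scb replicate 1 or replicate 2 fewer of these genes were called lower, as was so over all tested genes. MAD2L1, the checkpoint protein MAD2, had 147 and 142 CPM in the controls and 48.1 and 46.8 CPM after knockdown, a log2 fold change of −1.61 ± 0.102 (edgeR adjusted p = 0.00201). BUB3, which holds BUB1 on KNL1, had 266 and 267 CPM against 139.6 and 135 CPM and fell by 0.96 on the log2 scale (SE 0.0938, edgeR adjusted p = 0.00321). NDEL1, a dynein regulator, was the gene that rose, from 16.5 and 18.4 CPM to 43.3 and 42.1 CPM (log2 fold change 1.29 ± 0.132, edgeR adjusted p = 0.00330).

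Promoter windows of 300 bases, from 250 before to 50 after the start, were found in RefSeq for 33 of the 39 genes. MIS18A, CENPH, KNL1, CENPL, KNTC1 and CENPM were not matched. A start in RefSeq can lie far inside the gene as annotated in GENCODE. The CENPP window with a match begins at chr9:92600007, whereas the gene, on the plus strand, begins at chr9:92325953. Both strands were searched for the CHR, for CCAAT and for an E2F site (TTTCCCGC, TTTGGCGC, TTTCGCGC or TTTGCCGC), and no match of a motif overlapped a match of another motif. A CHR was found in 17 of the 33 genes (51.5%), in 15.5% of 11925 tested genes with a window, in 16.4% of all 35116 windows and in 21.1% of 1679 genes called lower. CCAAT was found in 23 genes (69.7%), against 42.6%, 34.6% and 47.9%. An E2F site was found in 4 genes, CENPA, CENPU, MIS12 and OIP5 (12.1%), against 6.33%, 3.31% and 11%. CENPE, CENPI, CENPT, DSN1 and NSL1 had none of the 3 in their window.

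The log2 fold changes of genes with and without a match are given with no test. The median was −0.87 in the 17 genes with a CHR and −0.91 in the 16 without, −0.87 with and −1.00 without CCAAT, and −0.74 with and −0.88 without an E2F site. By layer, a CHR was found in 3 of 3 genes of the CENP-A layer with a window, 4 of 11 of the CCAN, 6 of 12 of the KMN network and SKA complex, 3 of 5 of the corona and 1 of the 2 shugoshins. A match is a description of the letters and not of binding.

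**Figure D5:**
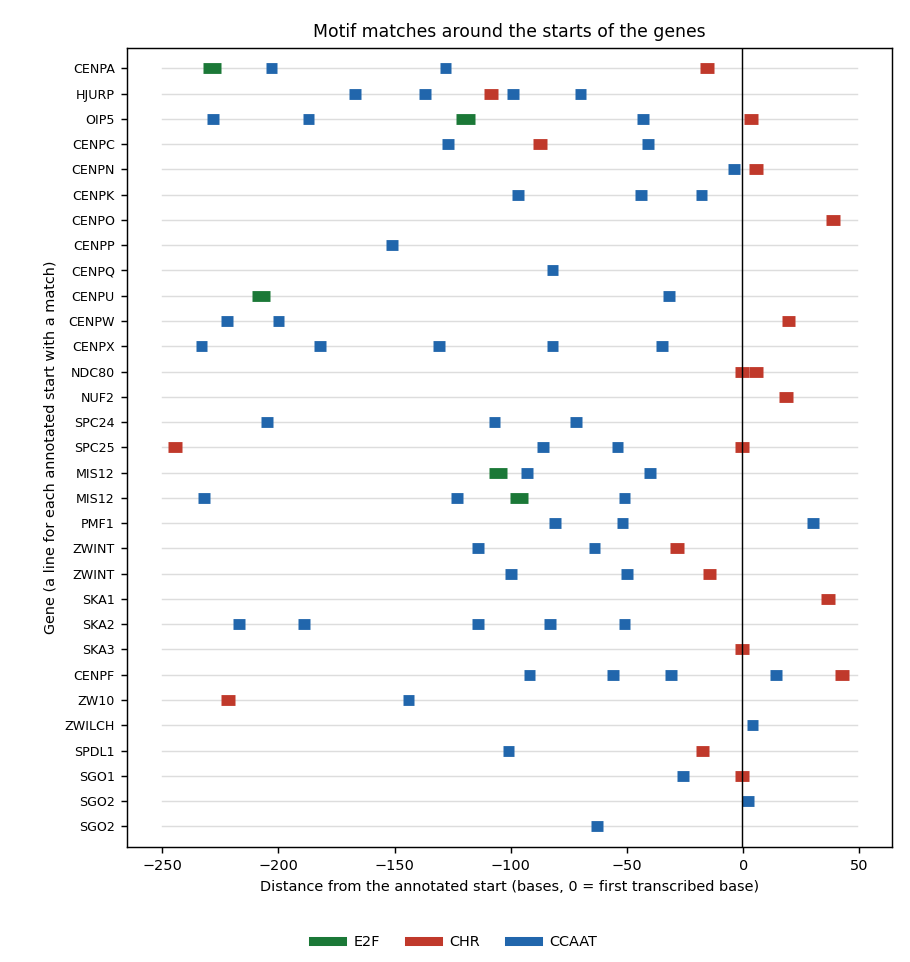
Positions of E2F (green), CHR (red) and CCAAT (blue) matches around the annotated starts, 1 line per start with a match, with distance in bases on the horizontal axis and 0 at the first transcribed base. CHR matches gather near the start, with a median position of −3, and 17 genes have at least 1.

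Of the 39 genes, 25 overlapped another annotated gene, 23 of them on the opposite strand, against 69.7% of 17467 tested genes with an annotation that overlapped another gene on either strand. The library kit named in the labels does not mark strand. Of the 25, 21 were called lower with a median log2 fold change of −0.85, and of the 14 without an overlap 11 were called lower with a median of −1.00. Over all tested genes, 12.5% were called lower.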

How the data were processed

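RNA-seq libraries were made by the authors from total RNA of SK-N-BE(2) cells with sh-Scb or sh-SAPCD2, 2 libraries per group. Paired-end reads were aligned by the authors with HISAT2 2.2.0 (genome build hg38), StringTie gave abundances, and whole-number counts per Ensembl gene, not scaled for depth, were deposited. How coverage became counts, the annotation release, the strand setting and the treatment of multiply matching reads are not given in the sources used here.

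Groups were taken from the labels. Counts were scaled by TMM (the trimmed mean of M values), filtered with filterByExpr (minimum count 10, minimum total 15) and tested by quasi-likelihood in edgeR 4.0.16 (R 4.3.3), p-values being adjusted after Benjamini-Hochberg across the 18779 genes tested. An adjusted p under 0.05 made a call, and an absolute log2 fold change over 1 also a DEG. The biological coefficient of variation was 15.4%. Standard errors were the absolute log2 fold change over the square root of F. Transcript lengths, GC content and positions came from GENCODE 44 canonical transcripts on hg38, and promoter windows from RefSeq. Replicate numbers do not pair the libraries in the labels, and the correlation of their deviations was −0.02.

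The members and lists were chosen with earlier results of these data known. All 39 genes are named. A further gene is not reported here. Given per library are, in each layer, the genes with the lowest and the highest log2 fold change, the highest level per length and those below 0 but not called, of the other kinetochore genes the 3 with the smallest p and any that rose, and SAPCD2. Other values per library, the partner pairs and the printed promoters were chosen after the values were seen. Alternatives were DESeq2 1.42.0, its size factors, library totals, no filter, a mean of at least 1 CPM, a replicate block, a loess fit (span 0.3) on GC content and length as offsets, both together, and each library left out. The tests were tried on simulated data. Python 3.11.15, numpy 2.4.6, pandas 2.3.3 and matplotlib 3.10.9 were used for counting and figures.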

Additional observations from a re-analysis of the deposited data

How the results depend on the processing

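The direction of the 39 genes and of the layer medians held under the alternatives run, except in 3 genes that were not called: CENPQ (−0.46 to 0.039, leaving out 1 library) turned without sh-SAPCD2 replicate 2, CENPT (−0.062 to 0.14) without sh-Scb replicate 1 and also to −0.12 with the correction for GC content and length and −0.12 with that correction and the replicate block, and SKA1 (−1.09 to 0.93) without sh-Scb replicate 1. Without the filter on low counts, 20 genes were called lower, all among the 32, and SAPCD2 (log2 fold change −0.91, edgeR adjusted p = 0.0749, range over the alternatives 6.98e-06 to 0.0749) was not called, in a fit that tested 34935 genes. Over all genes, that fit called 1180 lower, against 2339 in the main fit. Lower DEGs numbered 9 with the correction for GC content and length and 10 with the replicate block added, and the KMN and SKA median was −0.97 in both fits. Over all genes, these fits called 3665 and 3584 lower at any fold change. Leaving out 1 library gave 21 to 35 genes lower, 13 to 20 lower DEGs, 12 to 19 of the other 25 kinetochore genes lower, and medians from −1.00 to −0.82 for all genes, −1.12 to −0.91 for KMN and SKA, −1.24 to −0.72 for the corona and −1.17 to −0.82 for the shugoshins. The libraries share only a replicate number, and the replicate block gave 33 genes lower, the 32 and PMF1, and 16 lower DEGs, and called CENPX higher (log2 fold change 0.86). Over all genes, the fit with the replicate block called 2701 lower. DESeq2 called 34 lower, adding CENPC and PMF1, and called CENPX higher. Of the 34935 genes in the DESeq2 fit, 2195 were called lower. With 2 libraries per group a lone library is assumed to vary like the other group, and a change of SKA1 could not be resolved at its depth.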
